A study of Mus musculus with 3 samples.

Results

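The genes described here are the semaphorins, ephrins, slits and netrins with their plexin, neuropilin, Eph, Robo and Unc5 receptors, in nuclei of mouse epididymal fat. They were chosen by gene symbol alone, and 70 of the 29625 genes listed over the 3 libraries matched. All 70 were listed in Ctrl, among 28930 genes, while 69 were listed in Mid_Ob, among 26353 genes, and 69 in Ob, among 26350 genes. The gene listed in Ctrl alone was Epha8. The members were 7 secreted semaphorins, 12 transmembrane semaphorins, the GPI-anchored Sema7a, 9 plexins, 2 neuropilins, 5 ephrin-A and 3 ephrin-B ligands, 9 EphA and 5 EphB receptors, 3 slits, 4 robos, 4 netrins and 4 Unc5 receptors. A further 2 genes, Unc50 and Unc5cl, matched by name only and encode proteins outside these families. Epha8 and Robo3 had under 50 counts in all libraries together and are not described further.

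These families were found as cues that steer growing axons. Semaphorins signal through plexins, and most secreted semaphorins also need a neuropilin, which in turn binds vascular endothelial growth factors. Slits bind Robo receptors, netrins bind Dcc and Unc5 receptors, and ephrins are membrane-bound ligands of the Eph receptor kinases. In fat the same genes are known from vessels, immune cells, progenitors and adipocytes as well as from nerve endings.

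The study followed C57BL/6J male mice, bought at 5 weeks of age and adapted for 1 week, through diet-induced obesity. Ctrl mice ate an ordinary diet. Mid_Ob and Ob mice ate a 60% high-fat diet until their body weight was more than 10% and more than 20% over the mean of the controls. No genotype, agent or transgene differed between the groups. The fat of 8 mice per group was pooled before nuclei were isolated, so that each stage is 1 library and the spread between mice is unknown. Every ratio between stages below therefore compares 2 libraries, and its 95% interval covers counting error only.

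The libraries held 53980929 UMIs (unique molecular identifiers, each a tag of 1 captured transcript) in Ctrl, 57665213 in Mid_Ob and 111595518 in Ob, in 14, 11 and 21 clusters of nuclei. Levels are given as CPM, the counts of a gene divided by all UMIs and scaled to 1000000 UMIs, of a library, a cluster or a class of clusters. CPM is not divided by gene length, so the order of genes is an order of counts and not of transcripts. Classes were named from marker genes, and such names were rebuilt here. Tissue other than fat was present: clusters with testis or epididymis markers held 15.4% (testis somatic), 26.3% (germ cell) and 5.32% (epididymal epithelium) of the UMIs in Ctrl and 30.3% (epididymal epithelium) in Mid_Ob, and no cluster of Ob was named so. Ciliated epithelium-like clusters held a further 1.64% in Ob and 2.30% in Mid_Ob, and cluster 17 of Ob, the ciliated one, had the leading genes Dnah11 and Rmst in common with the epididymal cluster 8 of Ctrl. Unnamed clusters were not counted among these. Cluster 1 of Ctrl (2.16% of UMIs) had Tssk6 and Oaz3 among its leading genes, and cluster 7 of Mid_Ob (2.72%) had Tinag. Libraries without the testis and epididymis clusters may thus still hold tissue other than fat. Macrophage-like clusters held 8.85%, 6.15% and 19.6% of UMIs in Ctrl, Mid_Ob and Ob, and adipocyte-like clusters 25.2%, 46.9% and 55.4%. In a whole-library comparison, fewer cells of a type and less RNA per cell cannot be told apart. The list of 17 epididymal markers also had counts in the named adipose classes, not every gene in each, where it summed to 2265 to 3706 CPM in Mid_Ob, against 85.0 to 368 CPM in Ctrl.

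The members together took 4442 CPM in Ctrl, 3992 CPM in Mid_Ob and 3567 CPM in Ob. A few genes carried most of this: the 3 members with the most counts held 48.6%, 52.0% and 53.0% of all member counts at the 3 stages, and the 10 with the most held 75.9%, 77.9% and 81.2%. The median member stood at 15.6 CPM in Ctrl, 10.8 CPM in Mid_Ob and 4.61 CPM in Ob. The number of members under 1 CPM was 4, 8 and 15 in this order of stages. The sum was highest in a mesothelial-like cluster in every library, at 9417 CPM in Ctrl, 9423 CPM in Mid_Ob and 8993 CPM in Ob. It was lowest in a germ cell-like cluster of Ctrl, at 1640 CPM, and in the lymphocyte-like clusters of Mid_Ob and Ob, at 1821 and 1280 CPM.

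**Figure D1:**
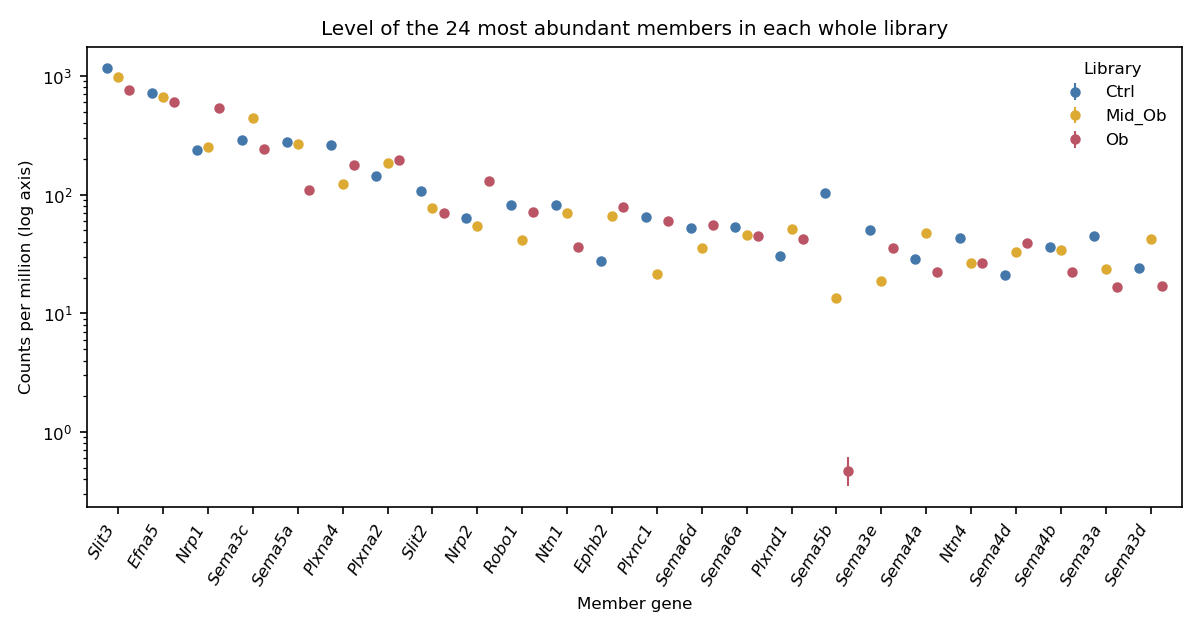
Level of the 24 members with the most counts in the 3 libraries, in CPM on a log axis, with 1 point per library. Slit3 stands highest in Ctrl (1157 CPM), Mid_Ob (975 CPM) and Ob (753 CPM), and Nrp1 stands at 536 CPM in Ob against 238 and 249 CPM in Ctrl and Mid_Ob.

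Slit3 (ENSMUSG00000056427, chromosome 11), a secreted ligand of Robo receptors, had more counts than any other member at every stage. Its level was 1157 CPM in Ctrl, 975 CPM in Mid_Ob and 753 CPM in Ob. In the fibroblast or progenitor-like clusters it reached 3302, 3208 and 1634 CPM in clusters 8, 9 and 19 of Ob, and 3847 CPM in cluster 8 of Mid_Ob. In Ctrl the highest cluster was cluster 4, at 3791 CPM, which was left unnamed. Slit2 (107, 76.9 and 70.1 CPM in Ctrl, Mid_Ob and Ob) was likewise high in fibroblast or progenitor-like clusters, with 374 CPM in Ob and 457 CPM in Mid_Ob, while Slit1 stayed between 5.43 and 10.1 CPM in whole libraries. Robo1, their receptor, was highest in the same cells: 359 CPM in this class of Ob and 488 CPM in that of Mid_Ob, against 57.3 and 29.8 CPM in the adipocyte-like clusters of these libraries. Ligand and receptor were thus both high in 1 class. The vessel receptor Robo4 and the neuronal Robo2 stayed under 4 and 14 CPM in every library.

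Among the ephrins, Efna5, a GPI-linked ligand of Eph receptors, held nearly all counts of its family. It stood at 714 CPM in Ctrl, 662 CPM in Mid_Ob and 602 CPM in Ob, out of 724, 673 and 605 CPM for the 5 ephrin-A genes. Its highest class was mesothelial-like at every stage, with 2619 CPM in Ctrl, 2629 CPM in Mid_Ob and 2927 CPM in Ob. Adipocyte-like clusters followed with 963, 1005 and 827 CPM. The mesothelial-like clusters also led for Plxna4, a receptor of class A that pairs with neuropilins, at 1201, 1364 and 1281 CPM. They led as well for Sema5a, a transmembrane semaphorin with thrombospondin repeats, at 1064, 1161 and 930.0 CPM. These 3 genes kept within 1.5-fold between all stages in that class. The mesothelium, the sheet that covers the fat pad, thus held the highest sum of members although its share of UMIs was 10.4%, 4.05% and 2.48% at the 3 stages.

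**Figure D2:**
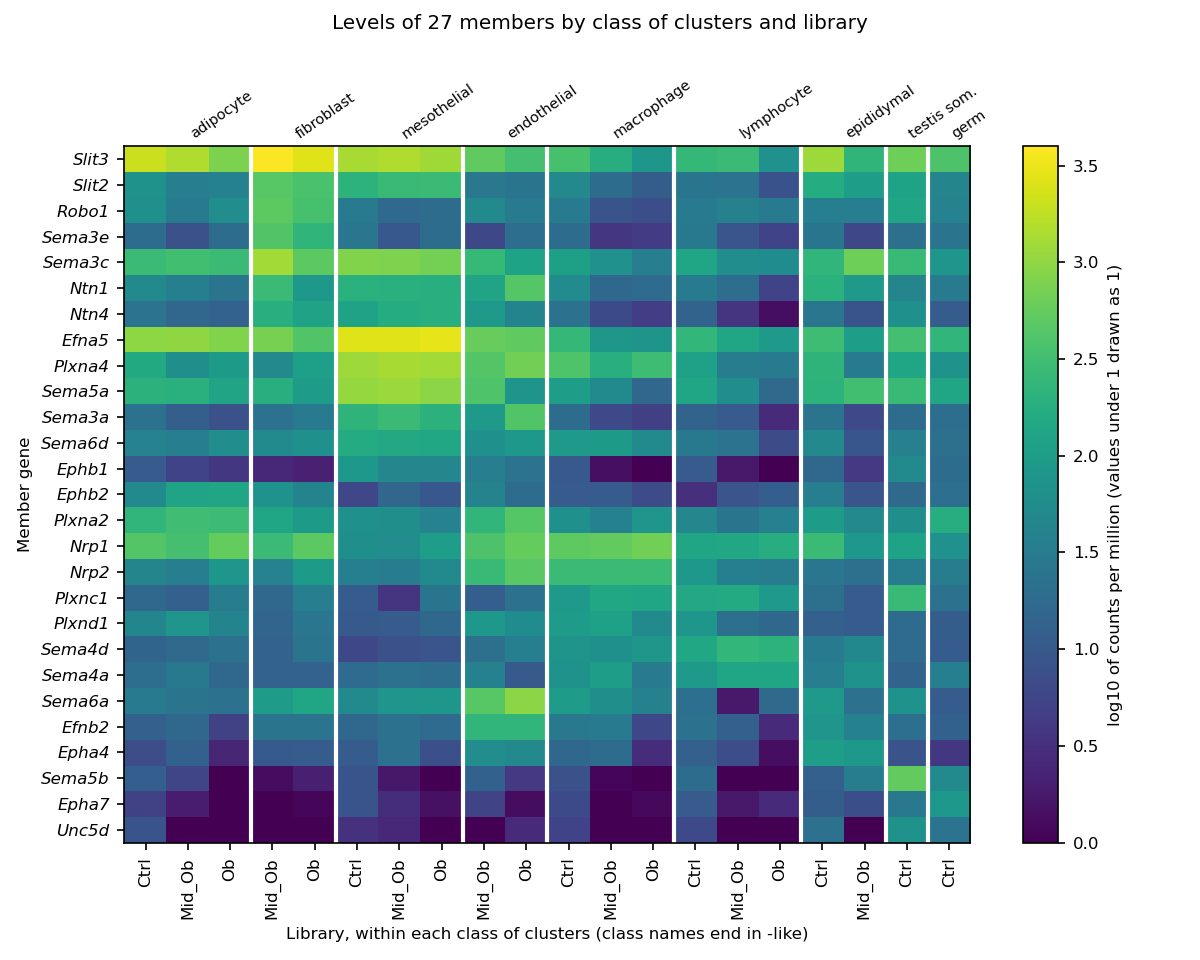
Heat map of 27 members (rows) by class of clusters in each library (columns), coloured by the log10 of CPM (values under 1 drawn as 1). Slit3 and Robo1 are brightest in the fibroblast or progenitor-like columns, Efna5, Plxna4 and Sema5a in the mesothelial-like columns and Ephb2 in the adipocyte-like columns. Nrp1 is bright in the macrophage-like (505 to 676 CPM), the adipocyte-like (341 to 560.1 CPM) and the endothelial-like columns (399 CPM in Mid_Ob and 555 CPM in Ob).

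The other ligands had their highest levels in various classes. Sema3c, a secreted semaphorin that acts through neuropilins and plexins, stood at 286 CPM in Ctrl, 440 CPM in Mid_Ob and 240 CPM in Ob, and its highest adipose class was mesothelial-like in Ob (698 CPM) and fibroblast or progenitor-like in Mid_Ob (1241 CPM). Sema3e, the ligand of Plxnd1 that needs no neuropilin, was found mainly in fibroblast or progenitor-like clusters, at 225 CPM in Ob and 414 CPM in Mid_Ob. Sema4d, a ligand of plexin-B known from lymphocytes, was highest in lymphocyte-like clusters, with 141, 245 and 210.5 CPM in Ctrl, Mid_Ob and Ob. Sema4a was shared by lymphocyte-like clusters (86.3, 129 and 129 CPM) and macrophage-like clusters (69.7, 103 and 31.3 CPM). Ntn1, the founding netrin, was spread over classes, at 200.2, 190.4 and 184 CPM in mesothelial-like clusters of Ctrl, Mid_Ob and Ob. It stood at 82.8 CPM in the fibroblast or progenitor-like clusters of Ob and 283 CPM in that of Mid_Ob, and at 443 CPM in the endothelial-like clusters of Ob and 128 CPM in that of Mid_Ob. Efnb2, the arterial ephrin, was highest in endothelial-like clusters, at 233 CPM in Ob and 232 CPM in Mid_Ob.

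Among receptors, the neuropilins Nrp1 and Nrp2 had the largest share of the members' counts in Ob. Together they took 302 CPM in Ctrl, 304 CPM in Mid_Ob and 667 CPM in Ob, or 6.79%, 7.61% and 18.7% of all member counts. Nrp1 was found in adipocyte-like clusters (439, 341 and 560 CPM in Ctrl, Mid_Ob and Ob) as well as in macrophage-like clusters (505, 550 and 676 CPM). It was also found in endothelial-like clusters, at 555 CPM in Ob and 399 CPM in Mid_Ob. Nrp2 stood at 287, 283 and 286 CPM in macrophage-like clusters, which held 39.6%, 31.9% and 42.7% of its counts, and at 43.8, 35.2 and 77.8 CPM in adipocyte-like clusters. In endothelial-like clusters it reached 480.1 CPM in Ob and 272 CPM in Mid_Ob. Plxnc1, the receptor of Sema7a, had 86.9, 141 and 130 CPM in macrophage-like clusters and 16.3, 12.8 and 33.9 CPM in adipocyte-like ones. In lymphocyte-like clusters Plxnc1 had 149, 161 and 87.1 CPM, above the macrophage-like level in Ctrl and Mid_Ob and below it in Ob. Its ligand Sema7a stood at 9.65, 9.07 and 1.22 CPM in the whole libraries.

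The upstream sequences of these 3 receptors are shown because Plxnc1, Nrp2 and Nrp1 had the 3 highest ratios of Ob over Mid_Ob among members over 20 CPM in Ob and are all transcribed in macrophage-like nuclei. Each run is the 250 bases before the annotated start, read 5′ to 3′ on the strand of the gene, from RefSeq on GRCm38.p6. Capitals mark GAGGAA, the core that the myeloid factor PU.1 is known to bind, searched together with its reverse TTCCTC. Plxnc1 lies at chr10:94944846-94945095 on the minus strand, Nrp2 at chr1:62703067-62703316 and Nrp1 at chr8:128358823-128359072, both on the plus strand.
Plxnc1: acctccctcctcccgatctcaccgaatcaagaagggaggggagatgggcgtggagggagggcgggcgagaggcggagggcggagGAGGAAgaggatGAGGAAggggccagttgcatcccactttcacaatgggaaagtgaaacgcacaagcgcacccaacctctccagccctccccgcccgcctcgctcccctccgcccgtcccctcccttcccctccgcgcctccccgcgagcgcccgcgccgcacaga
Nrp2: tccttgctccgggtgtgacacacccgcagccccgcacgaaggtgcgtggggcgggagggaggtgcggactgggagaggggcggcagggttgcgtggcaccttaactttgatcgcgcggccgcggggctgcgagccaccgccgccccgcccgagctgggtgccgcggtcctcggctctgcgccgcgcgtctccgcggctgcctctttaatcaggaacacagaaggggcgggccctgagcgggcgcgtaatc
Nrp1: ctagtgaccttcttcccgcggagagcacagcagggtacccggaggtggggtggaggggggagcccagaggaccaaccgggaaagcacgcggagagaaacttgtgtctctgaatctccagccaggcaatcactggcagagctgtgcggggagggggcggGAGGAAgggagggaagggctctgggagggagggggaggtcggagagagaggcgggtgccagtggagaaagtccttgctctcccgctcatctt
The Plxnc1 window held 2 matches, the Nrp1 window 1 and the Nrp2 window 0. Of 32851 promoters of the same length 23.3% held GAGGAA or its reverse, and so did 20 of the 61 members with an entry. Members were counted by gene, with a match in any of its promoters. Here and below, their share is thus not on the same measure as that of all promoters. The GC-box letters GGGCGG or CCGCCC, none of whose matches here shared a base with GAGGAA, occurred 4 times before Plxnc1, 5 times before Nrp2 and 1 time before Nrp1, and were held by 32.7% of all promoters and by 46 of the 61 members. GC content was 68.8%, 72.4% and 64.4% for Plxnc1, Nrp2 and Nrp1. A match describes the letters only and is not evidence of a bound factor.

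Plexins of class A were spread over more classes. Plxna2 stood at 142 CPM in Ctrl, 185 CPM in Mid_Ob and 197 CPM in Ob and was highest, among the adipose classes shared by all stages, in adipocyte-like clusters (236, 317 and 290.4 CPM). Plxnd1, the receptor of Sema3e, stood at 30.5, 50.9 and 42.6 CPM, with 93.8, 113 and 50.8 CPM in macrophage-like clusters. Plxna1 (25.8, 24.5 and 30.5 CPM) and Plxnb2 (40.5, 22.7 and 19.6 CPM) were spread at low level, with no class over 64.9 CPM. Of the Eph receptors, Ephb2, which binds B-type ephrins and Efna5, was found above all in adipocyte-like clusters. These held 48.7%, 87.9% and 91.1% of its counts in Ctrl, Mid_Ob and Ob. The Unc5 receptors of netrin summed to 36.4, 37.8 and 12.4 CPM.

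Ob was compared with Mid_Ob to see which members differed between the later and the earlier stage of obesity. A member was called where its CPM differed by more than 1.5-fold and the pair had at least 50 counts, a rule of size and not a test. In whole libraries 8 members were higher in Ob (17.5% of all 19814 genes compared were) and 36 were lower (27.3% of all genes), of 65 compared. The median log2 ratio was -0.69 over these members and -0.09 over all genes. The members lower in Ob thus made up a larger share than among all genes, and those higher a smaller one. By sums of CPM, the neuropilins were higher in Ob, at 667 against 304 CPM in Mid_Ob. The secreted and transmembrane semaphorins were lower, at 318 against 548 CPM and 309 against 498 CPM, as were the ephrin-B, EphA, netrin and Unc5 families. The GPI-anchored Sema7a was lower too, at 1.22 against 9.07 CPM. Plexins, ephrin-A, EphB, slits and robos kept within 1.5-fold.

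Plxnc1 had the highest ratio. It stood at 59.6 CPM in Ob, against 21.6 CPM in Mid_Ob, a ratio of 2.76 (2.59 to 2.93). Nrp2 stood at 131 CPM in Ob, against 54.7 CPM in Mid_Ob, a ratio of 2.39 (2.30 to 2.49). Nrp1 stood at 536 CPM in Ob, against 249 CPM in Mid_Ob, a ratio of 2.15 (2.11 to 2.19). All 3 are receptors found in macrophage-like nuclei. Sema3e (1.91), Robo1 (1.71) and Sema6d (1.57), a transmembrane ligand of Plxna1, were the other members over 10 CPM called higher in Ob. Plxnb3 and Ntn3 were called higher at under 3 CPM, and the interval of Plxnb3, 0.833 to 3.24, included 1.

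Without the clusters of testis and epididymis, but with the ciliated and unnamed ones kept, 4 members were higher in Ob (15% of all genes) and 36 lower (24.8%) of 64. The ratios were 2.27 for Plxnc1, 1.89 for Nrp2, 1.67 for Nrp1 and 1.59 for Robo1, all still over 1.5-fold. Among the genes called lower in whole libraries were Sema3c, at 240 CPM in Ob against 440 CPM in Mid_Ob, and Epha4, at 4.66 CPM in Ob against 37.5 CPM in Mid_Ob. Sema5a stood at 109 CPM in Ob, against 265 CPM in Mid_Ob, and Ntn1 at 36.1 CPM against 70.4 CPM. Epididymal clusters held 44.5% of the Sema3c counts of Mid_Ob, and without them Sema3c had a ratio of 0.687, within 1.5-fold. The lowest ratios belonged to Sema5b, Sema4g, Epha5 and Robo2, each under 1 CPM in Ob.

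Ob was compared with Ctrl as the full span of the diet. Here 6 members were higher in Ob (18.1% of all genes) and 44 lower (43.5%) of 68, with a median log2 ratio of -0.97 for members and -0.35 for all genes. Scaled by the median of gene ratios instead, which moves all values by that -0.35, 12 members were higher (28.9% of all genes) and 35 lower (36.6%). Ephb2 had the highest ratio, with 78.9 CPM in Ob, against 27.5 CPM in Ctrl, or 2.87 (2.71 to 3.03). Nrp1 (2.26), Sema6b (2.06), Nrp2 (2.04), Sema4d (1.85) and Ntn3 (1.58) were also higher. Without the testis and epididymis clusters 4 members were higher (17% of all genes) and 46 lower (31.9%) of 65. There Nrp2 came to 1.42 and Sema4d to 1.497, both within 1.5-fold, while Ephb2 kept a ratio of 2.38 and Nrp1 of 1.52.

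Several genes lower in Ob than in Ctrl were genes of the testis clusters. Sema5b, a transmembrane semaphorin, stood at 0.466 CPM in Ob, against 104 CPM in Ctrl, and the testis somatic-like cluster held 79.6% of its counts in Ctrl. Epha7 stood at 0.923 CPM in Ob, against 30.9 CPM in Ctrl, where germ cell-like clusters held 70.4% of its counts. Plxnc1 was within 1.5-fold between the whole libraries, at 59.6 CPM in Ob and 64.3 CPM in Ctrl, but 63.5% of its Ctrl counts lay in the testis somatic-like cluster, at 265 CPM. Without such clusters its ratio of Ob over Ctrl was 1.91 (1.78 to 2.05). Efna3 and Ntn5 had 3 counts each in Ob.

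Mid_Ob was compared with Ctrl for the first stage of weight gain. In whole libraries 18 members were higher in Mid_Ob (17.3% of all genes) and 23 lower (35.5%) of 67, with a median log2 ratio of -0.11 for members and -0.16 for all genes. Without testis and epididymis clusters 11 were higher (15.6%) and 25 lower (22.9%) of 64. Ephb2 was higher in Mid_Ob both ways, with ratios of 2.42 and 2.76. Sema3c stood at 440 CPM in Mid_Ob, against 286 CPM in Ctrl, but at 350.3 and 398 CPM without those clusters, which turned its direction. Robo2, Unc5a, Sema3g and Epha4 had the highest ratios, at 4.40, 3.76, 3.40 and 2.86, all from under 14 CPM in Ctrl. Plxna4, at 122 CPM in Mid_Ob against 264 CPM in Ctrl, and Sema3e, at 18.5 against 50.6 CPM, were lower.

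In macrophage-like clusters the difference of the neuropilins between the libraries was smaller. In this class Nrp1 stood at 676 CPM in Ob, against 550.4 CPM in Mid_Ob, a ratio of 1.23 (1.17 to 1.29). Nrp2 stood at 286 CPM in Ob, against 283 CPM in Mid_Ob, a ratio of 1.01 (0.943 to 1.08). Plxnc1 stood at 130 CPM in Ob, against 141 CPM in Mid_Ob, a ratio of 0.916 (0.833 to 1.01). All 3 genes were thus within 1.5-fold in the class, while the class itself took 19.6% of UMIs in Ob against 6.15% in Mid_Ob. The 16 macrophage markers summed to 8481 CPM in this class of Ob and 8248 CPM in that of Mid_Ob, but single markers differed. Gpnmb stood at 1518 CPM in Ob, against 324 CPM in Mid_Ob, and Mmp12 at 1180.2 against 169.9 CPM, whereas F13a1 stood at 1171 CPM in Ob, against 2428 CPM in Mid_Ob. In the class of Ctrl, Gpnmb, Mmp12 and F13a1 stood at 936, 859 and 2186 CPM.

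Over all members, 4 were higher in Ob macrophage-like clusters than in those of Mid_Ob (13.1% of all genes) and 18 lower (18.4%) of 39. Plxna4, at 301 CPM in Ob against 179 CPM in Mid_Ob, and Plxna2, at 75.8 against 38.6 CPM, had ratios of 1.68 (1.55 to 1.83) and 1.96 (1.65 to 2.36). Sema4a stood at 31.3 CPM in Ob, against 103 CPM in Mid_Ob, a ratio of 0.302 (0.266 to 0.344), and Plxnd1 at 50.8 against 113 CPM, or 0.449 (0.400 to 0.504). The receptors Plxna2 and Plxna4 were thus higher in Ob, and Sema4a and Plxnd1 lower. The values of Plxna4 and Plxna2 leaned in part on a single cluster. Without cluster 2 of Ob, the largest of the 6, the log2 ratios were 0.45 for Plxna4, within 1.5-fold, and 0.61 for Plxna2, still past it. Over all members, 2 were then higher (11% of all genes) and 12 lower (15.5%) of 35.

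The 6 macrophage-like clusters of Ob differed among themselves. Sema4a stood at 8.17, 6.31 and 30.0 CPM in clusters 1, 2 and 3, and at 69.2, 75.4 and 147 CPM in clusters 11, 14 and 20. Plxna2 ran the other way, with 82.2, 111 and 62.1 CPM in clusters 1, 2 and 3 and 34.0, 40.6 and 19.3 CPM in clusters 11, 14 and 20. Clusters 1 and 2 had the lipid-associated gene Gpnmb at 1337 and 3190 CPM, and clusters 11 and 20 had F13a1, a gene of resident macrophages, at 3246 and 7584 CPM. Clusters 3 and 14 did not follow this split as clearly. Cluster 3 had Gpnmb at 664 CPM and F13a1 at 849 CPM. Cluster 14 had Gpnmb at 246 CPM, F13a1 at 1527 CPM and the highest Ccr2 of these clusters, at 499 CPM. Sema6d stood at 25.7, 11.9 and 57.2 CPM in clusters 1, 2 and 3 and at 133, 77.3 and 164 CPM in clusters 11, 14 and 20. Nrp1 spanned 539 to 1011 CPM and was highest in cluster 20. These clusters were made from the same nuclei and genes, so their differences are a description.

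Against Ctrl, 1 member was higher in the macrophage-like clusters of Ob (13.7% of all genes), Ntn3 with an interval of 0.867 to 3.65, and 29 lower (24.1%) of 43, with a median log2 ratio of -1.39 for members and -0.08 for all genes. Between Mid_Ob and Ctrl 1 was higher (8.71%), Plxnc1, and 17 lower (14.8%) of 35. Many genes lower than in Ctrl were genes of other classes, such as Slit3, at 80.0 CPM in Ob and 177 CPM in Mid_Ob, with 357 CPM in Ctrl, and Efna5, at 72.7 and 80.0 CPM, with 254 CPM in Ctrl. In Ctrl they were unequal between the macrophage-like clusters 9 and 11, with Slit3 at 595 and 94.6 CPM and Efna5 at 398 and 94.99 CPM. Of the marker lists, all 14 adipocyte genes were counted in both clusters and summed to 3703 CPM in cluster 9 and 1276 CPM in cluster 11, and the 12 mesothelial genes to 750.5 and 195 CPM. Their part in the result was not tested. Without cluster 9, 2 members were higher in Ob than in Ctrl (18.3% of all genes) and 20 lower (15.3%) of 39, and 4 higher (15.2%) and 7 lower (7.72%) of 24 in Mid_Ob, where Slit3 turned to a log2 ratio of 0.91. Without cluster 11 the counts were 5 (16.7%) and 27 (27.4%) of 41 in Ob, and 2 (10.2%) and 19 (17.7%) of 32 in Mid_Ob.

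**Figure D3:**
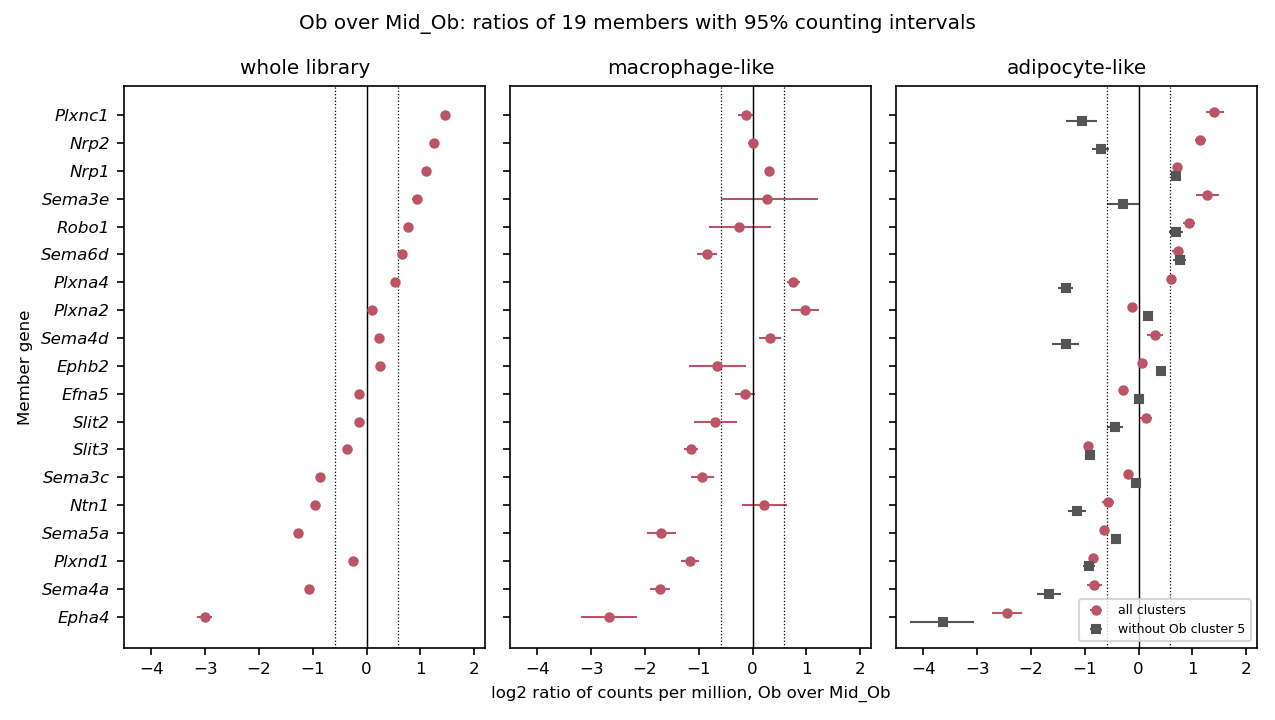
Ratio of Ob over Mid_Ob on a log2 axis for 19 members, with bars for 95% counting intervals and dotted lines at 1.5-fold, in whole libraries, macrophage-like clusters and adipocyte-like clusters with and without cluster 5 of Ob. Nrp2 has ratios of 2.39 in the libraries, 1.01 in macrophage-like clusters, 2.21 in adipocyte-like clusters and 0.613 there without cluster 5.

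In adipocyte-like clusters 7 members were higher in Ob than in Mid_Ob (15.3% of all genes) and 31 lower (19%) of 61. Nrp1 stood at 560.1 CPM in Ob, against 341 CPM in Mid_Ob, a ratio of 1.64 (1.60 to 1.68). Nrp2 stood at 77.8 CPM in Ob, against 35.2 CPM in Mid_Ob, a ratio of 2.21 (2.06 to 2.37). Plxnc1 (2.66), Sema3e (2.42), Robo1 (1.92), Sema6d (1.65) and Plxna4 (1.52) were the other genes called higher. Most of them were not equal over the 3 adipocyte-like clusters of Ob. Nrp2 was at 117 CPM in cluster 5, against 21.4 and 21.9 CPM in clusters 4 and 7, and Plxnc1 at 53.4 CPM against 5.88 and 6.74 CPM. Plxna4 was at 141 CPM in cluster 5, against 23.0 and 26.5 CPM in clusters 4 and 7. Nrp1 was alike in all 3, at 540, 568 and 572 CPM in clusters 4, 5 and 7.

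Macrophage markers moved with this split. All 16 were counted in each cluster and summed to 2961 CPM in cluster 5, against 578 and 556 CPM in clusters 4 and 7. For the class they summed to 1978 CPM in Ob, 795 CPM in Mid_Ob and 1418 CPM in Ctrl. Their part in the result was not tested. Without cluster 5, Nrp2 stood at 21.6 CPM in Ob, against 35.2 CPM in Mid_Ob, a ratio of 0.613 (0.551 to 0.682), and Plxna4 and Plxnc1 came to 0.392 and 0.480. Sema3e came to 0.822 (0.665 to 1.02). The direction of Nrp2, Plxna4 and Plxnc1 was thus turned, and Sema3e came within 1.5-fold. Nrp1 kept a ratio of 1.61 (1.57 to 1.65), Robo1 of 1.62 and Sema6d of 1.70. The count without cluster 5 was 4 higher (9.88% of all genes) and 41 lower (26.3%) of 61.

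**Figure D4:**
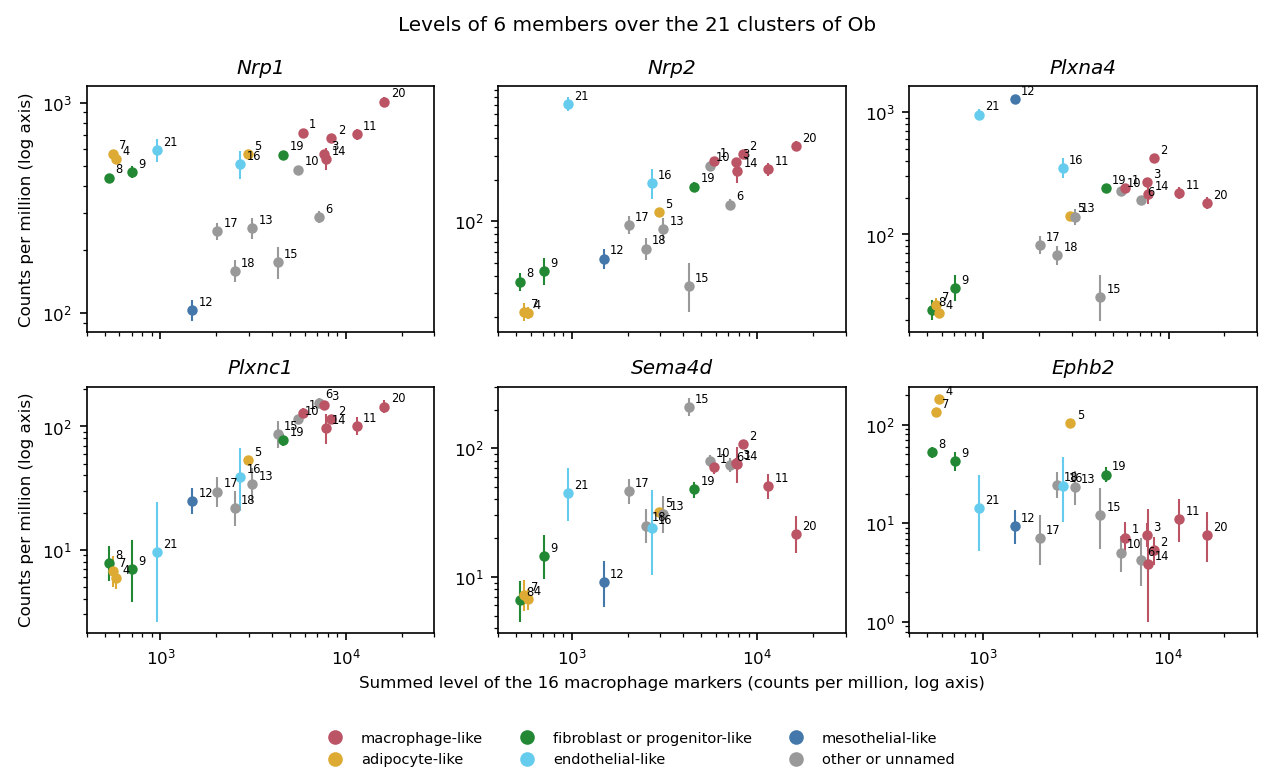
Level of Nrp1, Nrp2, Plxna4, Plxnc1, Sema4d and Ephb2 in each of the 21 clusters of Ob (CPM, log axis) against the summed CPM of 16 macrophage markers (log axis), coloured by class. Among adipocyte-like clusters, cluster 5 (2961 CPM of markers) lies above clusters 4 and 7 for Nrp2, Plxna4, Plxnc1 and Sema4d, whereas Nrp1 lies at 540 to 572 CPM in all 3 and Ephb2 lies lower in cluster 5.

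Slit3 and Ephb2 were called between Ob and Ctrl in adipocyte-like clusters with and without cluster 5. Slit3 stood at 2033 CPM in Ctrl, 1498 CPM in Mid_Ob and 783 CPM in Ob. The ratio was 0.523 (0.516 to 0.530) for Ob over Mid_Ob and 0.385 (0.380 to 0.391) for Ob over Ctrl, and clusters 4, 5 and 7 of Ob were all below the other stages, at 704, 768 and 1043 CPM. Ephb2 stood at 53.1 CPM in Ctrl, 125 CPM in Mid_Ob and 130 CPM in Ob, with ratios of 2.35 (2.17 to 2.55) for Mid_Ob over Ctrl and 2.45 (2.27 to 2.64) for Ob over Ctrl. Its 3 Ob clusters spanned 104 to 181 CPM and all lay above the level in Ctrl. Without cluster 5 the Ob over Ctrl ratios were 0.396 for Slit3 and 3.14 for Ephb2. In Ctrl the adipocyte-like nuclei formed 1 cluster, so no spread among clusters is known there.

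Against Ctrl, 5 members were higher in the adipocyte-like clusters of Ob (18.8% of all genes) and 31 lower (27.6%) of 59, and without cluster 5 these were 5 (14.2%) and 35 (35.1%) of 54. Between Mid_Ob and Ctrl 12 were higher (15.3%) and 19 lower (20.2%) of 62. The netrin receptors Unc5a, Unc5b and Unc5c were among those higher in Mid_Ob, and Unc5a stood at 29.1 CPM in Mid_Ob, against 9.47 CPM in Ctrl, a ratio of 3.08 (2.55 to 3.73). In Ob Unc5a stood at 10.2 CPM, against 29.1 CPM in Mid_Ob, a ratio of 0.352 (0.316 to 0.391). Plxnd1 had the same shape, at 45.5, 76.2 and 42.4 CPM in Ctrl, Mid_Ob and Ob. The 17 epididymal markers summed to 306, 3102 and 79.3 CPM in the adipocyte-like clusters of Ctrl, Mid_Ob and Ob, and Unc5a also stood at 18.4 CPM in the epididymal clusters of Mid_Ob. Their part in these values was not tested.

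In Ob and Mid_Ob some clusters were named fibroblast or progenitor-like. Between these, 6 members were higher in Ob (18.4% of all genes) and 15 lower (12.5%) of 38. Sema3c stood at 496 CPM in Ob, against 1241 CPM in Mid_Ob, a ratio of 0.400 (0.379 to 0.421). Ntn1 stood at 82.8 CPM in Ob, against 283 CPM in Mid_Ob, a ratio of 0.293 (0.261 to 0.329). Sema3e stood at 225 CPM in Ob, against 414 CPM in Mid_Ob, a ratio of 0.544 (0.498 to 0.595). These 3 secreted ligands were lower in Ob, while Nrp1, at 494 CPM in Ob against 283 CPM in Mid_Ob, was higher with a ratio of 1.74 (1.58 to 1.93). Sema3b, Sema3d and Ntn4 were called lower as well, at ratios of 0.348, 0.6001 and 0.652. Slit2, Slit3 and Sema3a kept within 1.5-fold. Slit3 stood at 2640 CPM in Ob, against 3847 CPM in Mid_Ob, a ratio of 0.686, and the ratio was 0.819 for Slit2 and 1.34 for Sema3a. The class was cluster 8 alone in Mid_Ob and pooled clusters 8, 9 and 19 in Ob. Sema3e was a leading gene in the Mid_Ob cluster and in cluster 9 of Ob, but not in clusters 8 and 19 of Ob. The pooled clusters were thus unlike each other, and the part of this mix in the ratios was not tested.

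Nrp2, Plxna4, Plxnc1 and Sema4d were called higher in this class too, with ratios of 2.34, 2.19, 2.15 and 1.75. Cluster 19 of Ob carried these: its 16 macrophage markers, all counted, summed to 4589 CPM, against 527 and 705 CPM in clusters 8 and 9 and 490.4 CPM in the class of Mid_Ob, and their part in the result was not tested. Without cluster 19 the ratios were 0.970 for Nrp2, 0.553 for Plxna4, 0.468 for Plxnc1 and 0.646 for Sema4d. Nrp1 kept 1.58, Sema3c 0.495 and Ntn1 0.326, so that 3 members were higher (12.3% of all genes) and 15 lower (12.4%) of 36. Leaving out the cluster thus turned the direction of Plxna4, Plxnc1 and Sema4d and left that of Nrp1, Sema3c and Ntn1 as it was. For Nrp2 little difference remained.

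Endothelial-like clusters were found in Mid_Ob (cluster 9) and Ob (clusters 16 and 21), and 10 members were higher in Ob (13.3% of all genes) and 13 lower (19.8%) of 39. The clusters of Ob were unlike each other. Cluster 21 had all 11 endothelial and all 6 lymphatic markers at more than 2-fold their median over the other clusters of Ob (10 or more counts), and the lymphatic markers summed to 4375 CPM there, against 389 CPM in cluster 16 and 875 CPM in cluster 9 of Mid_Ob. Cluster 16 had 10 of the 11 endothelial markers raised in this way, but also 13 of 14 adipocyte and 11 of 14 fibroblast markers. In cluster 21 Sema6a stood at 1468 CPM, Plxna4 at 953 CPM, Ntn1 at 728 CPM, Nrp2 at 711 CPM and Sema3a at 683 CPM. These were the highest levels of Ntn1, Nrp2, Sema3a and Sema6a in any cluster of Ob.

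Set against cluster 9 of Mid_Ob, cluster 21 had Sema3a at 683 against 88.8 CPM, a ratio of 7.69. In all 12 members were higher in cluster 21 (12.3% of all genes) and 13 lower (26.1%) of 37. The ratio was 6.50 for Sema3d, 5.69 for Ntn1, 3.21 for Sema6a and 2.62 for Nrp2, the co-receptor of the lymphatic growth factor receptor Flt4. Sema5a went the other way, at 37.9 CPM in cluster 21 against 400.3 CPM in cluster 9, a ratio of 0.0948. Cluster 16 alone, set against cluster 9, had 1 member higher (17.3% of all genes) and 16 lower (27.8%) of 35, and Sema3a at 83.7 CPM against 88.8 CPM. That member was Slit2, with an interval of 0.775 to 2.78. Of the 10 members higher in the class, 8 came to a ratio under 1 without cluster 21, but only Sema6a, Ephb4 and Ntn1 by more than 1.5-fold. Plxna2 came to a ratio of 1.11, and Sema4d, whose interval in the class was 0.973 to 2.75, had too few counts left. The difference in vessel type and that in stage cannot be told apart in these values.

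**Figure D5:**
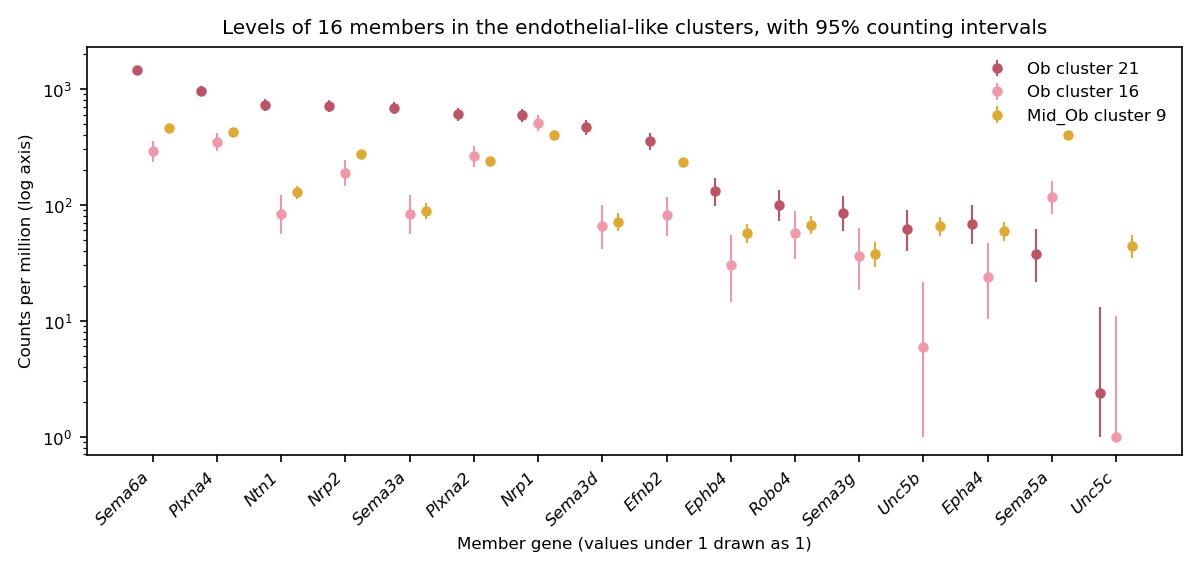
Level of 16 members in the endothelial-like clusters 21 and 16 of Ob and cluster 9 of Mid_Ob, in CPM on a log axis (values under 1 drawn as 1), with 1 point per cluster and bars for 95% counting intervals. Sema3a, Sema3d and Ntn1 lie at 683, 465 and 728 CPM in cluster 21 and at 88.8, 71.5 and 128 CPM in cluster 9, and Sema5a lies at 37.9 CPM in cluster 21 and 400.3 CPM in cluster 9.

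In mesothelial-like clusters most members kept within 1.5-fold. Between Ob and Mid_Ob 4 were higher in Ob (13.3% of all genes) and 7 lower (9.58%) of 39. Between Ob and Ctrl 6 were higher in Ob (15.3%) and 10 lower (18.1%) of 44, and between Mid_Ob and Ctrl 3 were higher in Mid_Ob (8.06%) and 9 lower (12.3%) of 44. Nrp1 was higher in Ob than in Mid_Ob here as well, at 103 against 59.0 CPM, a ratio of 1.75 (1.42 to 2.16), and Plxnc1 was at 24.9 against 3.42 CPM. The 16 macrophage markers, all counted, summed to 1486 CPM in this class of Ob, 432 CPM in Mid_Ob and 739 CPM in Ctrl, and their part in these values was not tested. Ntn4, a netrin of basement membranes, stood at 185 CPM in Ob, against 117 CPM in Ctrl, a ratio of 1.58 (1.41 to 1.78).

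Lymphocyte-like clusters were shallow, and only 8 to 14 members reached 50 counts in a pair. Sema4d was higher in Mid_Ob, at 245 CPM, against 141 CPM in Ctrl, a ratio of 1.74. Between Mid_Ob and Ctrl 2 members were higher (11.8% of all genes) and 6 lower (14%) of 13, between Ob and Mid_Ob 0 (11.5%) and 3 (11%) of 8, and between Ob and Ctrl 1 (17.4%) and 9 (19.2%) of 14. Scaled by the median of gene ratios, the last split was 3 (17.8%) and 9 (18.9%). Before this scaling, the 1 member higher in Ob than in Ctrl was Unc5cl, which matched by name only. The 2 higher in Mid_Ob than in Ctrl were Sema4d and Unc5cl. At this depth the other members could not be compared in lymphocytes. Several members called lower than in Ctrl were genes of other classes. Sema5a stood at 136, 57.3 and 17.4 CPM in Ctrl, Mid_Ob and Ob, and Efna5 at 240, 136 and 87.1 CPM. The part of other cells in these values was not tested.

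Other genes of the pathways were followed through 2 lists. Of the 28 further receptors and partners, such as Dcc, Neo1, Met, Kdr and the vascular endothelial growth factors, 27 were listed, and 6 were higher (17.5% of all genes) and 10 lower (27.3%) in Ob than in Mid_Ob over whole libraries, with a median log2 ratio of -0.04. Of 47 intracellular partners, such as the kinases Fes and Fyn, 8 were higher and 9 lower of 46 in the same comparison. Against Ctrl, where 18.1% of all genes were higher in Ob and 43.5% lower, the counts were 3 and 11 of 26, and 9 and 13 of 47. In Mid_Ob against Ctrl, with 17.3% of all genes higher and 35.5% lower, they were 6 and 13 of 27, and 8 and 11 of 47. In macrophage-like clusters 1 partner was higher (13.7% of all genes) and 13 lower (24.1%) of 19 between Ob and Ctrl, and 2 and 15 of 39 intracellular genes. The partners lower there were, among others, the endothelial growth factor receptors Kdr and Flt1. The unequal marker sums of clusters 9 and 11 of Ctrl touch these counts too, and their part was not tested.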

How the data were processed

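Nuclei of pooled epididymal fat were profiled on the 10x Genomics platform in 1 library for each of Ctrl, Mid_Ob and Ob. The authors ran Cell Ranger with its built-in STAR. The genome build is not given in the sources used here, nor are the versions. The paper then describes keeping nuclei under 5% mitochondrial UMIs and removing doublets. Whether the deposited tables were made before or after these later steps is not stated. The signal deposited by the authors is a mean count per gene and cluster, the summed UMIs over the summed size factor of the nuclei. The deposited tables also hold a log2 fold change of each cluster against the other nuclei of its library and an adjusted p-value, which are the authors' own comparisons and were not used. Nuclear barcodes were not analysed here, and no doublets were removed here, so the counts used may still hold them.

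The smallest step between the values of a cluster gave back the whole counts, and 100% of values were whole within 0.001 counts. A gene missing from a table was taken as 0 counts. The median nucleus held 4472, 6676 and 3946 UMIs in Ctrl, Mid_Ob and Ob, and clusters held 461585 to 13622520, 468501 to 27025541 and 334383 to 36391957 UMIs. Clusters were named from lists of marker genes. Of 29625 gene identifiers 29593 (99.9%), with all 70 members, were found in GENCODE M21. Antisense genes (3) were left out. Ratios of CPM have 95% conditional binomial intervals, with a floor of 3 counts in place of 0. Since a stage is 1 library, stages were not tested against each other, and the limit of 1.5-fold with at least 50 counts in a pair is a rule of size. The members, lists and alternatives were chosen with earlier results of these data known. Genes named are the 3 members with the most counts per library and class, up to 8 with the highest and 8 with the lowest called ratios per comparison, and 2 per family. Other members were named after their values were seen. Alternatives were other scalings, equal weight for clusters, minimums of 10 and 500 counts, a limit of 2-fold, and leaving out clusters. Promoters came from RefSeq (GRCm38.p6). Both steps were checked on simulated counts. Scripts ran in Python 3.11.15 with pandas 2.3.3, numpy 2.4.6 and scipy 1.17.1, and matplotlib 3.10.9 drew the figures.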

Additional observations from a re-analysis of the deposited data

Results flagged for a closer look

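In 9 cases a member was called in opposite directions in 2 classes of clusters under the same comparison. None of these differences was tested, since each stage is 1 library. Between Mid_Ob and Ctrl, Plxnc1 had a log2 ratio of 0.70 in macrophage-like clusters and -1.71 in mesothelial-like clusters, which differ by 2.42. Between Ob and Mid_Ob, Sema6d was at 0.73 in adipocyte-like and -0.85 in macrophage-like clusters (a difference of 1.57), and Plxna2 at 0.97 in macrophage-like and -0.67 in mesothelial-like clusters (1.64).

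Between Ob and Ctrl the mesothelial-like clusters were on the higher side for Sema6a (0.59, with -1.35 in macrophage-like clusters, a difference of 1.94) and for Plxnd1 (0.62 and -0.88, a difference of 1.51). Ephb2 was at 1.29 in adipocyte-like and 0.68 in mesothelial-like clusters but at -0.62 in macrophage-like clusters, which gave differences of 1.91 and 1.29. The mesothelial-like value of Ephb2 rests on 26 counts in Ob and 33 in Ctrl, and the interval of its ratio, 0.918 to 2.75, includes 1. Ntn4 was at 0.66 in mesothelial-like clusters, -2.28 in macrophage-like and -0.78 in adipocyte-like clusters, with differences of 2.94 and 1.44. The macrophage-like values of Ctrl rest on clusters 9 and 11, whose sums of adipocyte markers were 3703 and 1276 CPM, and without cluster 9 the macrophage-like log2 ratio of Ephb2 was 0.81.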

How the results depend on the processing

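Of the counts of members called, 87 stayed within 1.5 times under the alternatives and 26 did not. Of the log2 ratios of single members 2624 stayed close, 329 moved and 39 turned in direction. These counts took higher and lower members together, so a count that stayed could hide a changed split. In endothelial-like clusters the split was 10 (13.3% of all genes) and 13 (19.8%). Without cluster 21 of Ob it was 1 (17.3%) and 16 (27.8%), which was among those that stayed. After each count of members called below stand the members higher and then lower, each with the share of all genes called in that direction under the same setting. With a limit of 2-fold, the counts in Mid_Ob over Ctrl were 23 (8 with 10%, 15 with 28.1%) in whole libraries, 11 (0 with 3.14%, 11 with 8.46%) in macrophage-like clusters, 17 (6 with 8.79%, 11 with 12.3%) in adipocyte-like clusters and 7 (2 with 2.82%, 5 with 6.44%) in mesothelial-like clusters. In Ob over Mid_Ob the same limit gave 11 (1 with 5.02%, 10 with 9.62%) in macrophage-like clusters, 24 (3 with 7.7%, 21 with 10.8%) in adipocyte-like clusters, 3 (1 with 6.08%, 2 with 3.21%) in mesothelial-like clusters, 10 (3 with 9.14%, 7 with 5.02%) in fibroblast or progenitor-like clusters, 13 (4 with 5.08%, 9 with 11%) in endothelial-like clusters and 1 (0 with 3.88%, 1 with 3.84%) in lymphocyte-like clusters, and in Ob over Ctrl 5 (1 with 7.73%, 4 with 8.87%) in mesothelial-like clusters. With a minimum of 10 counts, Mid_Ob over Ctrl had 31 (3 with 11.6%, 28 with 24.7%) in macrophage-like clusters, 21 (8 with 12.4%, 13 with 21.5%) in mesothelial-like clusters and 21 (3 with 15.6%, 18 with 26.5%) in lymphocyte-like clusters. Ob over Mid_Ob then had 38 (5 with 14.3%, 33 with 24.7%) in macrophage-like clusters, 19 (5 with 16.8%, 14 with 15.5%) in mesothelial-like clusters, 15 (3 with 16.6%, 12 with 19.6%) in lymphocyte-like clusters, 34 (10 with 19.2%, 24 with 19.3%) in fibroblast or progenitor-like clusters and 37 (12 with 16.5%, 25 with 26.6%) in endothelial-like clusters, and Ob over Ctrl 46 (1 with 13.2%, 45 with 34.2%) in macrophage-like clusters, 26 (8 with 17.1%, 18 with 27.2%) in mesothelial-like clusters and 24 (3 with 18.8%, 21 with 31%) in lymphocyte-like clusters. A minimum of 500 gave 33 (5 with 20.4%, 28 with 33%) for Ob over Ctrl in whole libraries. Without cluster 2 of Ob there were 14 (2 with 11%, 12 with 15.5%) in macrophage-like clusters of Ob over Mid_Ob, without cluster 5 of Ctrl 9 (2 with 16.9%, 7 with 14.1%) in mesothelial-like clusters of Ob over Ctrl, and without cluster 9 of Ctrl 11 (4 with 15.2%, 7 with 7.72%) in macrophage-like clusters of Mid_Ob over Ctrl.

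With equal weight for every cluster the log2 ratio turned to 0.19 for Ntn4 in Mid_Ob over Ctrl, to -0.051 for Sema3e, 0.092 for Sema3g, 0.093 for Robo4 and, in macrophage-like clusters, 0.057 for Sema6a in Ob over Mid_Ob, and to 0.019 for Sema3a, 0.13 for Efnb2, 0.31 for Ephb4, 1.48 for Robo4 and 0.15 for Unc5b in Ob over Ctrl. Without cluster 19 of Ob it turned in fibroblast or progenitor-like clusters to -0.63 for Sema4d, -0.86 for Plxna4, -1.10 for Plxnc1 and -0.044 for Nrp2. Without cluster 21 of Ob it turned in endothelial-like clusters to -0.085 for Sema3a, -0.12 for Sema3d, -0.059 for Sema3g, -0.66 for Sema6a, -0.29 for Plxna4, -0.53 for Nrp2, -0.93 for Ephb4 and -0.61 for Ntn1. Without cluster 5 of Ob it turned in adipocyte-like clusters to -0.28 for Sema3e, -1.35 for Plxna4, -1.06 for Plxnc1 and -0.71 for Nrp2 in Ob over Mid_Ob and to -1.06 for Sema4d, -1.41 for Plxnc1 and -1.02 for Nrp2 in Ob over Ctrl. Without cluster 9 of Ctrl it turned in macrophage-like clusters to 0.45 for Sema3c, 0.52 for Sema5a, 0.10 for Slit2 and 0.91 for Slit3 in Mid_Ob over Ctrl and to 0.15 for Sema3e, 0.089 for Efnb1 and 0.81 for Ephb2 in Ob over Ctrl. Without the testis and epididymis clusters it turned to -0.19 for Sema3c and -0.43 for Sema3d in Mid_Ob over Ctrl and to 0.17 for Unc5cl in Ob over Ctrl. Several of the values after a turn were small, and the cause of these turns was not tested. Leaving out the ciliated clusters as well, an alternative chosen after seeing the data, gave 42 (6 with 15.4%, 36 with 23.4%) in Ob over Mid_Ob and 51 (4 with 16.9%, 47 with 32.8%) in Ob over Ctrl. No paired analysis was possible because each stage has 1 library.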
